A study of Mus musculus with 15 samples.

Results

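The nuclear-encoded genes of the mitochondrial respiratory chain were followed in 15 RNA-seq libraries of mouse colon. Members were the rows of the count table named Ndufa, Ndufb, Ndufc, Ndufs or Ndufv, Sdha to Sdhd, Uqcr, Cox4 to Cox8 or Atp5, with pseudogene symbols ending in -ps left out. The rule found 99 of the 56859 genes in the table: 49 of complex I (assembly factors named Ndufaf among them), 4 of complex II, 8 of complex III, 21 of complex IV and 17 of complex V. Ndufa4 and Ndufa4l2 were placed with complex IV. Of the 99 members, 97 had a count and 91 passed the filter on low counts. The 8 that did not were Cox6a2, Cox7b2, Cox8b, Cox8c, Ndufa11b, Ndufb11b, Ndufb4c and Ndufs6b.

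The libraries form 5 groups of 3, all of colon, and the labels give male mice of the strain C57BL/6J aged 6 to 10 weeks. The colitis-associated cancer model pairs azoxymethane (AOM), a colon carcinogen, with dextran sodium sulfate (DSS), which injures the colon epithelium when drunk. The 5 groups are Control, which carries the wild-type label, saline-injected AOM/DSS mice labelled D27, D48 and D100, and AOM/DSS mice given APX3330. APX3330, also called E3330 in the library names, blocks the redox activity of the protein APE1/Ref-1. The protocol gives AOM at 10 mg/kg on day 0 and 2.5% DSS in the water on days 7 to 11, 28 to 32 and 49 to 53. It gives APX3330 at 25 mg/kg, or an equal volume of saline, daily over the same days. The protocol text says that every mouse received AOM and DSS, while the label of the Control group names neither, so what the Control mice received is not settled by the labels. The D48 and D100 groups also carry the words cycle1 and cycle2, and the APX3330 group carries no day, so it was set against each saline group in turn. No label says that the 3 libraries of a group came from separate mice, so each p-value reflects only how these libraries vary, which may be technical.

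The respiratory chain passes electrons from NADH (through complex I) and succinate (through complex II) to complex III, cytochrome c and complex IV, where oxygen is reduced. Complexes I, III and IV pump protons across the inner mitochondrial membrane, and complex V, the ATP synthase, lets them back to make ATP. Most subunits are encoded in the nucleus, while a small set at the heart of complexes I, III, IV and V is encoded by mitochondrial DNA. Differentiated colonocytes are known for a high use of this pathway, since they oxidize butyrate made by gut bacteria.

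Library totals ran from 13548661 to 17919613 counts, and 1.05% to 1.27% of all counts fell on the members. Levels are given as CPM, that is, counts scaled to a common library size with TMM factors. A gene was called changed where edgeR's quasi-likelihood test gave a Benjamini-Hochberg adjusted p below 0.05 over the 18038 genes tested. Some libraries carried transcripts of other tissues. Summed CPM of 9 skeletal muscle genes was 1259, 22.9 and 573 in the Control libraries and between 13.3 and 29.6 in the other 12. Squamous epithelium genes were high in Control 1 and 3 and in saline D100 1 (1014, 472 and 856 summed CPM). Exocrine pancreas genes summed to 34490 and 8263 CPM in saline D48 2 and 3 and to at most 9.59 CPM elsewhere. Counts of members called are given below with and without these libraries.

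Over the 5 groups, 26 of the 91 tested members differed by edgeR's F test, against 37.3% of all genes tested. They were 14 of 45 in complex I, 0 of 4 in complex II, 3 of 8 in complex III, 3 of 17 in complex IV and 6 of 17 in complex V. The count fell to 17 without Control 1. For the F test the share of all genes is given only for the fit to all libraries. A fall particular to the members thus cannot be told from one over all genes. Complex IV summed to 1851, 1838 and 1891 CPM in the Control libraries and 2306, 2353 and 2001 CPM in those of saline D27, which all lay above Control. Complex I summed to 2256 ± 64.6 CPM in Control (SD, n = 3). With saline it summed to 2604 ± 191 at D27, 2316 ± 221 at D48 and 2442 ± 223 at D100. The APX3330 group summed to 2331 ± 187. Complex V, led by the catalytic subunits Atp5a1 and Atp5b, summed to 4902 ± 244 CPM in Control. With saline it summed to 4914 ± 294 at D27, 4413 ± 428 at D48 and 5229 ± 217 at D100. The APX3330 group summed to 5101 ± 168. Within complexes the members split in 2 directions, which the heat map of members by library shows.

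**Figure D1:**
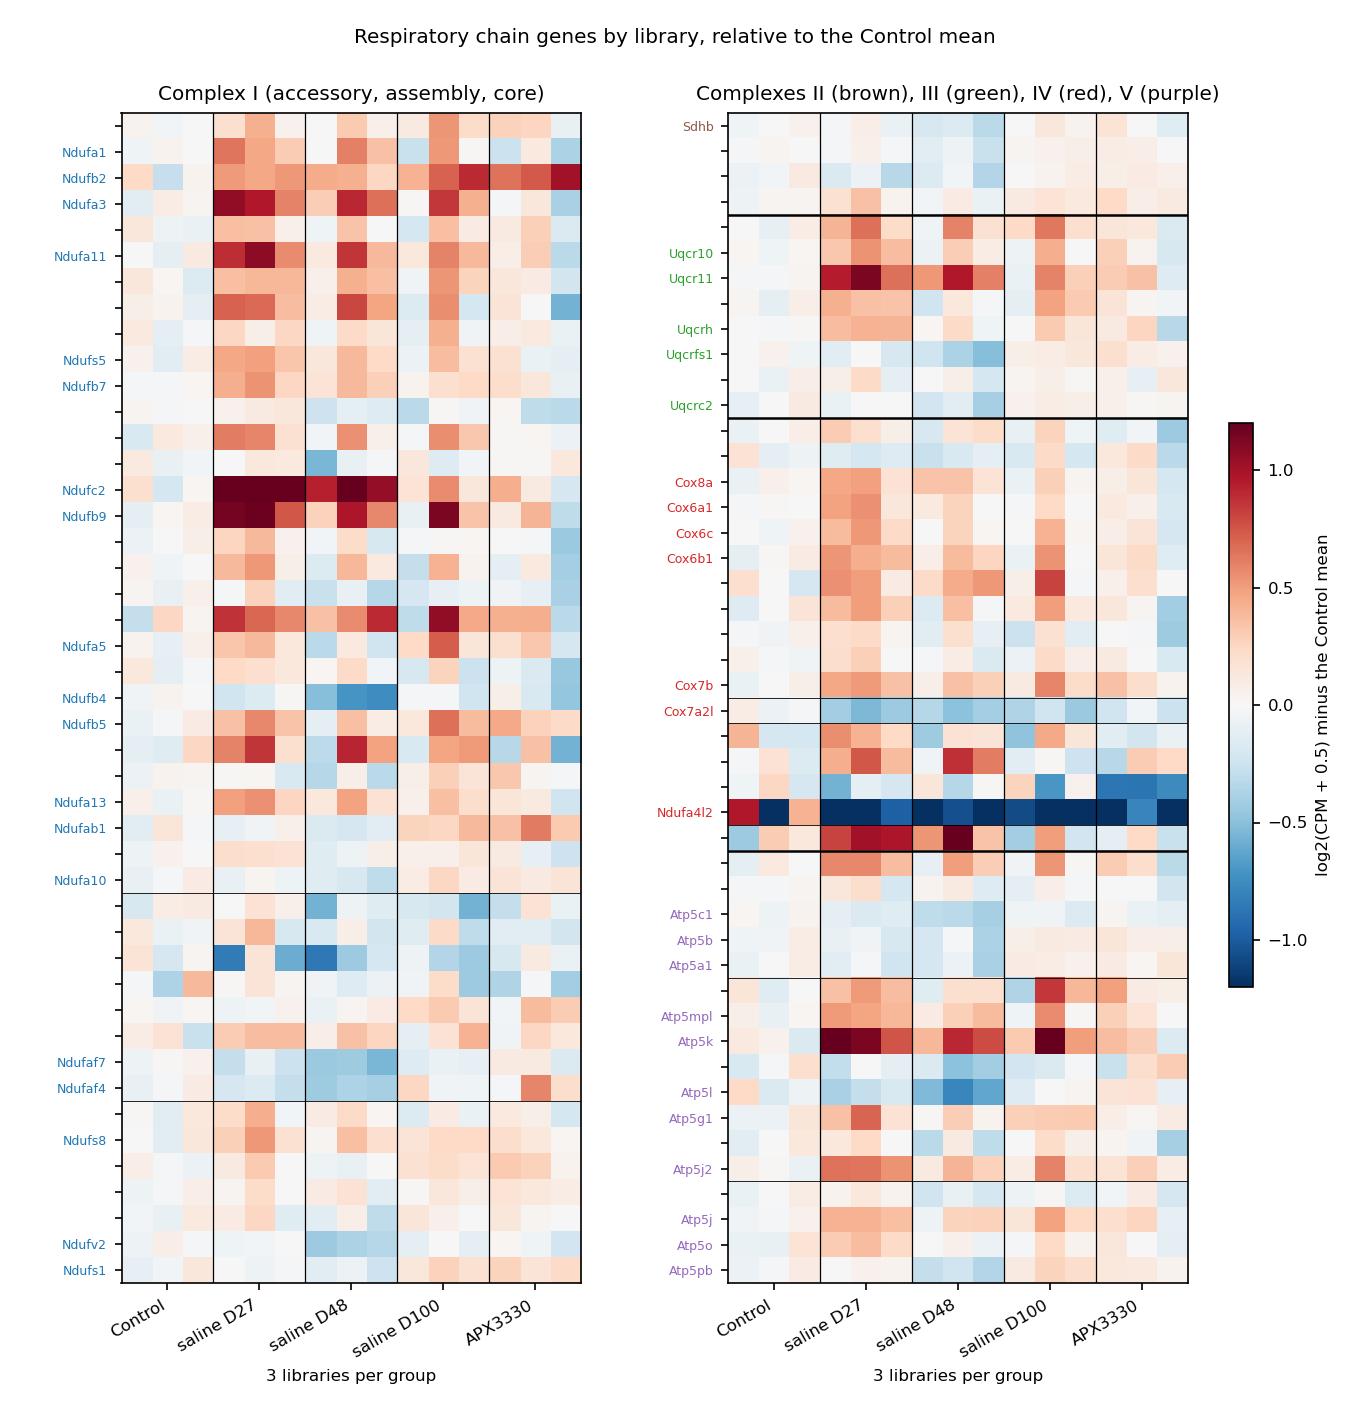
Level of each of the 91 tested members (rows) in each of the 15 libraries (columns), as log2(CPM + 0.5) minus the mean of the 3 Control libraries; the colour scale is cut at 1.2 on either side. Rows called in at least 1 pairwise comparison are labelled. Rows run by complex and role, from short to long transcripts within a role, and small accessory subunits such as Ndufc2, Ndufa3, Uqcr11 and Atp5k are red in saline D27 while Ndufv2, Uqcrfs1, Ndufaf4 and Ndufaf7 are blue in saline D48, as their fold changes below 0 there show.

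In saline D27 against Control most members that passed the test were higher. Of the 91 tested members, 24 passed the test, 23 higher and 1 lower, against 19.5% of all genes (10.2% higher and 9.36% lower). The 23 held 8 of the 30 accessory subunits of complex I and 1 of its 7 core subunits, 3 of 8 subunits of complex III, and 5 of the 11 general subunits of complex IV. In complex V they held 4 of 8 membrane subunits and 2 of 4 subunits of the peripheral stalk, but none of the 5 subunits of the F1 head. The median log2 fold change of the tested members was 0.22, beside -0.001 over all genes.

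Ndufc2, an accessory subunit in the membrane arm of complex I (chr7:97400003-97407802, plus strand, GRCm38), moved most. It stood at 30.9, 23.2 and 27.4 CPM in Control, 62.9, 72.3 and 63.1 CPM in saline D27 and 52.1, 64.8 and 56.8 CPM in saline D48. It stood at 30.4, 40.2 and 29.8 CPM in saline D100 and 36.7, 29.2 and 23.5 CPM in APX3330. All 6 libraries of saline D27 and D48 were above all 9 others. The log2 fold change against Control was 1.28 (SE 0.16, edgeR adjusted p = 0.000187) in saline D27 and 1.09 (SE 0.16, adjusted p = 0.000256) in saline D48. Against the same saline D27 libraries it was lower by edgeR in APX3330 (log2 fold change -1.15, adjusted p = 0.00265) and in saline D100 (-0.98, adjusted p = 0.0092). The changes of Ndufc2 against Control in saline D27 and D48 were called under each alternative run on them, 15 and 16 in number.

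Uqcr11, the smallest subunit of complex III (chr10:80402997-80406830, minus strand), had 39.2, 39.2 and 40.7 CPM in Control and 76.5, 87.1 and 63.0 CPM in saline D27. It had 57.0, 77.6 and 60.4 CPM in saline D48, 37.6, 60.1 and 48.5 CPM in saline D100 and 49.2, 50.6 and 35.5 CPM in APX3330. Saline D27 and D48 did not overlap Control, while saline D100 and APX3330 did. The log2 fold change against Control was 0.93 (SE 0.18, edgeR adjusted p = 0.0024) in saline D27 and 0.71 (SE 0.18, adjusted p = 0.00727) in saline D48.

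Atp5k, subunit e of the ATP synthase membrane part (chr5:108433244-108434448, minus strand), had 20.8, 19.9 and 16.9 CPM in Control and 44.5, 42.4 and 32.6 CPM in saline D27. In saline D100 it had 23.95, 54.7 and 27.2 CPM, so 1 library stood well above the other 2. Its log2 fold change against Control was 1.05 (SE 0.26, edgeR adjusted p = 0.0104) in saline D27, 0.72 (adjusted p = 0.049) in saline D48 and 0.88 (adjusted p = 0.0227) in saline D100. The call in saline D48 was lost under 10 of 16 alternatives, with adjusted p between 0.000343 and 0.549.

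Ndufa3, an accessory subunit of complex I (chr7:3617373-3620327, plus strand), had 22.0, 25.6 and 24.6 CPM in Control and 50.7, 47.4 and 36.7 CPM in saline D27. Its log2 fold change in saline D27 was 0.90 (SE 0.21, edgeR adjusted p = 0.00732), with no overlap between the groups. Ndufb9, another accessory subunit, had 8.04, 8.84 and 9.25 CPM in Control and 19.9, 20.3 and 14.9 CPM in saline D27 (log2 fold change 1.08, SE 0.28, edgeR adjusted p = 0.0153). Its exons overlap those of Gm49356 on the same strand over 28.6% of their bases, so its counts may be shared with that gene. The other 18 members higher in saline D27 rose by log2 fold changes of 0.30 (Atp5o, part of the peripheral stalk) to 0.89 (Ndufa11, an accessory subunit of complex I). Among them Cox6a1, the widely expressed form of cytochrome c oxidase subunit 6a, had 299, 303 and 301 CPM in Control and 421, 441 and 331 CPM in saline D27 (log2 fold change 0.40, SE 0.12, edgeR adjusted p = 0.0286).

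The count of members changed in saline D27 fell with single libraries left out. So did the share of all genes called, 19.5% with all libraries. The count was 9 without Control 1 (11.8% of all genes), 12 without Control 2 (14.4%) and 13 without Control 3 (12.6%). It was 9 without saline D27 1 (12.5%) and 6 without saline D27 2 (9.59%). With 1 library left out the member median ran from 0.19 to 0.32 on the log2 scale. Without the skeletal muscle and squamous libraries, which leaves 1 Control library whose spread is assumed to be that of the other groups, 1 member was called. In that fit 2.1% of all genes were called, and the member median was 0.28 on the log2 scale beside 0.22 with all libraries.

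**Figure D2:**
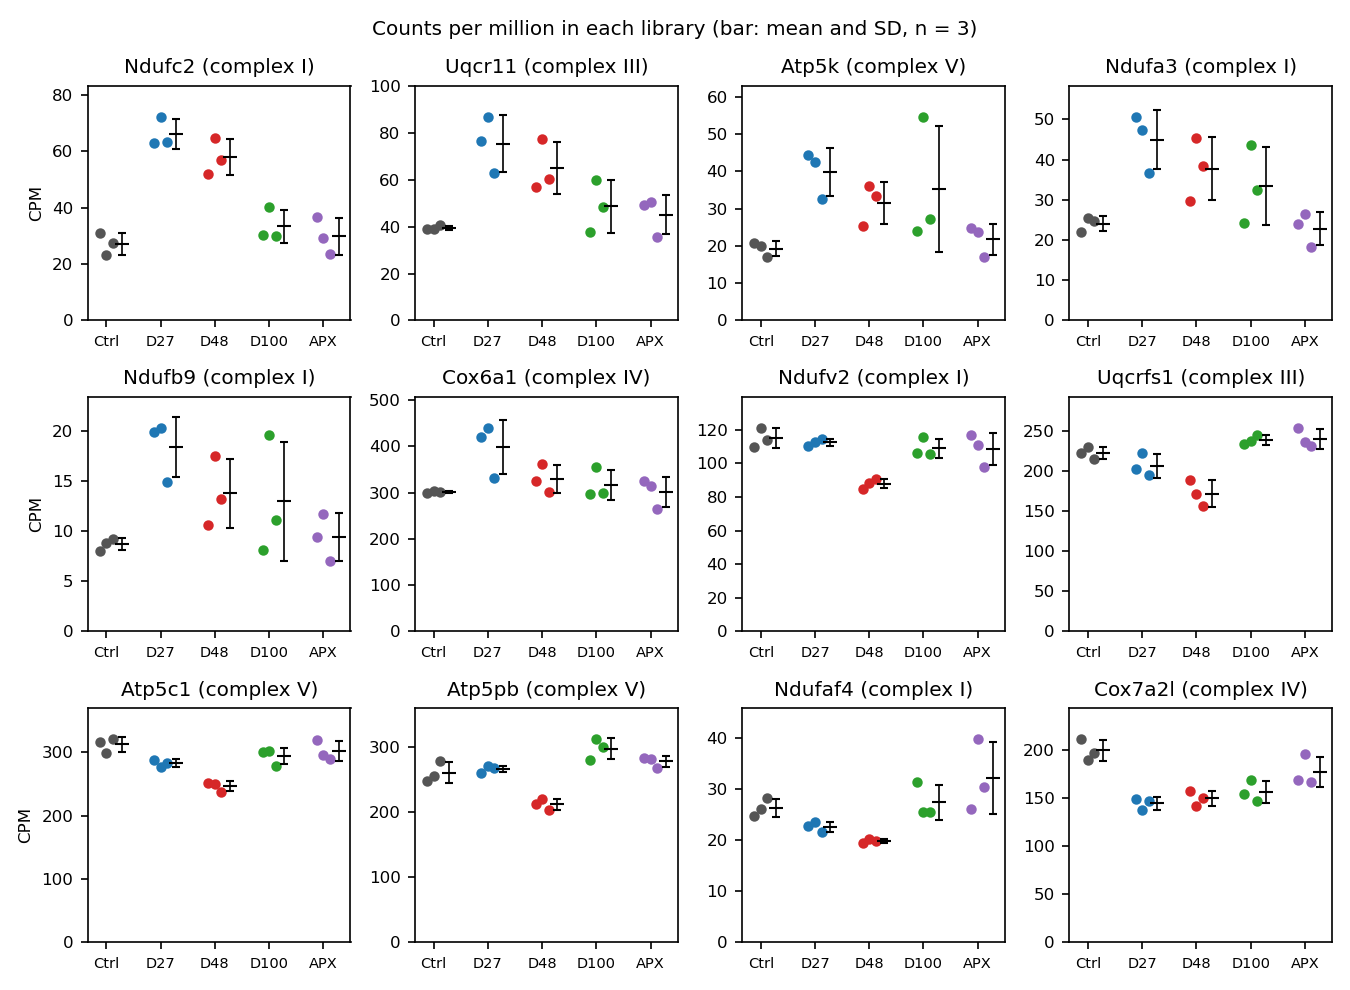
Level (CPM) of 12 members in each library, with the mean and SD of 3 libraries beside the points (Ctrl, Control; APX, APX3330). Ndufc2 lies between 52.1 and 72.3 CPM in saline D27 and D48 and between 23.2 and 40.2 CPM in the other groups, while Ndufv2, Atp5c1 and Atp5pb have their lowest 3 libraries in saline D48.

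In saline D48 the members lower than in Control came from complexes I, III, IV and V, and small subunits were higher. Of the 91 tested members, 10 were lower and 5 higher, 15 in all, against 27.3% of all genes (13% lower and 14.3% higher), so the share of members called was below that of all genes. The 10 lower members were Ndufv2, Ndufb4, Ndufaf4 and Ndufaf7 of complex I, Uqcrfs1 and Uqcrc2 of complex III, Cox7a2l of complex IV, and Atp5c1, Atp5pb and Atp5l of complex V. The 5 higher ones were the small subunits Ndufc2, Ndufa3, Ndufb7, Uqcr11 and Atp5k. The member median was 0.02 on the log2 scale, beside 0.004 over all genes.

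Ndufv2, an iron-sulfur subunit in the NADH-oxidizing head of complex I (chr17:66078638-66101559, minus strand), had 110, 121 and 114 CPM in Control and 111, 112 and 114 CPM in saline D27. It had 84.8, 88.2 and 90.5 CPM in saline D48, 106, 115 and 106 CPM in saline D100 and 117, 111 and 97.9 CPM in APX3330. The 3 saline D48 libraries were the lowest of the 15. The log2 fold change of saline D48 was -0.39 against Control (SE 0.08, edgeR adjusted p = 0.00261) and -0.355 against saline D27 (adjusted p = 0.0407).

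Uqcrfs1, the Rieske iron-sulfur protein of complex III (chr13:30540308-30545362, minus strand), had 223, 230 and 214 CPM in Control, 202, 222 and 194 CPM in saline D27 and 189, 171 and 156 CPM in saline D48. It had 233, 237 and 245 CPM in saline D100 and 254, 236 and 230 CPM in APX3330. All 3 saline D48 libraries lay below every other library. The log2 fold change of saline D48 against Control was -0.37 (SE 0.09, edgeR adjusted p = 0.00565).

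In the F1 head of complex V, Atp5c1, the gamma subunit that turns inside the head (chr2:10056016-10080510, minus strand), had 316, 299 and 321 CPM in Control and 252, 249.1 and 237 CPM in saline D48. The groups did not overlap, and the log2 fold change was -0.34 (SE 0.08, edgeR adjusted p = 0.00448). Atp5pb, the b subunit of the stalk that holds the head still (chr3:105942698-105960099, minus strand), had 247, 254 and 278 CPM in Control and 213, 220 and 203 CPM in saline D48 (log2 fold change -0.295, SE 0.08, edgeR adjusted p = 0.0128). It shares 38.7% of its 50-base words with other transcripts, so part of its counts may be split with near copies. Atp5b, the catalytic beta subunit and the member with the highest level per length (802 CPM per kilobase of transcript), had 1502, 1515 and 1653 CPM in Control and 1353, 1534 and 1194 CPM in saline D48, groups that overlapped and did not differ past the threshold.

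Of 8 assembly factors of complex I, 2 were lower (25%) and 0 higher in the same comparison. Of all genes 13% were lower and 27.3% were called in either direction. Ndufaf4 (chr4:24898083-24905001, plus strand) had 24.8, 26.0 and 28.3 CPM in Control and 19.5, 20.2 and 19.9 CPM in saline D48 (log2 fold change -0.41, SE 0.14, edgeR adjusted p = 0.0424). Ndufaf7, an arginine methyltransferase that acts on a complex I subunit (chr17:78937136-78948052, plus strand), had 25.2, 26.6 and 27.2 CPM in Control and 19.3, 19.5 and 17.9 CPM in saline D48 (log2 fold change -0.48, SE 0.11, edgeR adjusted p = 0.00479). Neither pair of groups overlapped. Atp5l, subunit g of the membrane part, fell by 0.69 on the log2 scale (edgeR adjusted p = 0.00516) and Ndufb4, an accessory subunit, fell by 0.70 (adjusted p = 0.00997). Both share many 50-base words with other transcripts (84.8% and 37%), so their counts are uncertain.

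The count for saline D48 against Control was 9 without Control 3 (20.1% of all genes) and 9 without saline D48 3 (19.1%). It was 2 without the pancreatic libraries, which leaves 1 saline D48 library, and 2 without the skeletal muscle and squamous libraries. In these 2 fits 7.75% and 6.53% of all genes were called, and the member medians were -0.07 and 0.06.

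RefSeq promoters (GRCm38.p6, 250 bases before to 50 after the start) were matched for 77 of the 99 members, and 4 words were searched on both strands. They were CGCATGCG (NRF1), CCGGAAG (ETS factors such as Gabpa), AAGGTCA (ERRA) and AAGATGG (YY1). CCGGAAG ends and AAGATGG begins with AAG, so these 2 can overlap, and each was counted on its own. The NRF1 word was in 13.3% of the 75 promoters of tested members and in 3.38% of the 12534 promoters of all tested genes. The ETS word was in 24% against 15.9%, the ERRA word in 10.7% against 3.3% and the YY1 word in 14.7% against 6.77%. Of the 20 promoters of members higher in saline D27 than in Control, 4 held the NRF1 word and 8 the ETS word. Of the 10 promoters of members higher in APX3330 than in saline D48, 2 held the NRF1 word and 1 the ETS word.

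The 150 bases before the start are shown, 5′ to 3′, for 3 members with a word that were higher in saline D27, for Ndufc2, which moved most and holds none of the 4 words in this stretch, and for 3 members lower in saline D48. Capitals mark the words found. They lie at chr5:108434400-108434549 (minus strand), chr10:80406822-80406971 (minus), chr17:56717612-56717761 (plus), chr7:97399853-97400002 (plus), chr4:24897933-24898082 (plus), chr17:66101560-66101709 (minus) and chr13:30545317-30545466 (minus), in the order printed.
Atp5k: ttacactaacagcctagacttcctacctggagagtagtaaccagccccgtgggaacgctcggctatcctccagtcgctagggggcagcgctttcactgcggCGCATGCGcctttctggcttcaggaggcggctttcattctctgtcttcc
Uqcr11: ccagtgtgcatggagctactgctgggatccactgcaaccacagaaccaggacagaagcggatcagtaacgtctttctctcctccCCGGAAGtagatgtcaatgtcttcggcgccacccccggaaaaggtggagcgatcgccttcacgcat
Ndufa11: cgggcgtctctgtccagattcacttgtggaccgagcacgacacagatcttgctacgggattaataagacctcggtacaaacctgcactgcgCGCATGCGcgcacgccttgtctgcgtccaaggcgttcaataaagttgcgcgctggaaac
Ndufc2: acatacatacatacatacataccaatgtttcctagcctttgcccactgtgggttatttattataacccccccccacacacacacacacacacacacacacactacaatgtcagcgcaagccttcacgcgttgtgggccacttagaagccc
Ndufaf4: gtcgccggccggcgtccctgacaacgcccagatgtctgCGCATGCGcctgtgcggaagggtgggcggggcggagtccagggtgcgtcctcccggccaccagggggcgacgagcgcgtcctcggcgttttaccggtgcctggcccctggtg
Ndufv2: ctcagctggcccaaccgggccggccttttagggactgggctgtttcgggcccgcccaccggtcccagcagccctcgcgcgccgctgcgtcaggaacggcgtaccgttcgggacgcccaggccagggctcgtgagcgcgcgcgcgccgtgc
Uqcrfs1: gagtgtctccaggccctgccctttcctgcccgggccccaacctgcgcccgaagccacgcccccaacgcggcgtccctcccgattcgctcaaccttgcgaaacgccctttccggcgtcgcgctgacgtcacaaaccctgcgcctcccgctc
Atp5k, Ndufa11 and Ndufaf4 hold the NRF1 word, first base 49, 59 and 112 bases before the start, and Uqcr11 holds the ETS word 66 bases before it. Ndufc2, Ndufv2 and Uqcrfs1 show no match, which says only that these letters are not in the stretch. A match is a description of the letters, not a binding site.

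Cox7a2l, a factor linked to the joining of complexes III and IV into supercomplexes (chr17:83501918-83517330, minus strand), was lower than Control at all 3 saline time points. It had 212, 190 and 197 CPM in Control and 169, 196 and 167 CPM in APX3330. With saline it had 150, 137 and 147 CPM at D27, 157, 142 and 150 CPM at D48, and 155, 169 and 147 CPM at D100. No saline library reached the Control range, and 1 of the 3 APX3330 libraries did. The log2 fold change against Control by edgeR was -0.47 (SE 0.09, adjusted p = 0.00254) in saline D27, -0.42 (adjusted p = 0.00306) in saline D48 and -0.35 (adjusted p = 0.0112) in saline D100. The 3 contrasts share the Control libraries, and the gene shares 19.8% of its 50-base words with Gm6969.

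Against Control, few members differed in the other groups. In saline D100, 4 members were called (2 higher, 2 lower), against 21.9% of all genes, and in APX3330 3 were called (2 higher, 1 lower), against 15.3%. Ndufb2, an accessory subunit of complex I (chr6:39592574-39603382, plus strand), was higher in both. It had 6.82, 4.60 and 5.86 CPM in Control, 7.77, 9.62 and 11.0 CPM in saline D100 and 9.26, 9.80 and 12.0 CPM in APX3330. Neither group overlapped Control, with log2 fold changes by edgeR of 0.71 (SE 0.19, adjusted p = 0.0149) and 0.84 (SE 0.19, adjusted p = 0.00854). Other genes, Gm42420 among them, overlap 50.3% of its exon bases, which makes its counts uncertain. Ndufab1, the mitochondrial acyl carrier protein that is also part of complex I (chr7:122085403-122101886, minus strand), had 26.95, 32.5 and 29.1 CPM in Control and 37.7, 45.6 and 36.7 CPM in APX3330 (log2 fold change 0.44, SE 0.11, edgeR adjusted p = 0.0135). This gene shares 31.2% of its 50-base words with transcripts of 11 other genes, so its counts are uncertain too. The count in saline D100 was 1 without Control 1 (14.1% of all genes), 2 without saline D100 3 (14.1%) and 13 without saline D100 1 (18.7%). It was 1 without the skeletal muscle and squamous libraries, where 5.07% of all genes were called. The count in APX3330 was 1 without Control 1, where 7.92% of all genes were called. Without the skeletal muscle and squamous libraries, which leaves 1 Control library, its member median was 0.08 beside 0.04 with all libraries.

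In mice given APX3330, 11 members were lower than in saline D27, 8 of them among the 40 with transcripts under 700 nucleotides. Of all genes under 700 nucleotides 6.49% were lower. Of the 91 tested members 13 passed, 11 lower and 2 higher, against 9.08% of all genes (4.37% lower and 4.71% higher). The 11 held 7 accessory subunits of complex I (Ndufc2, Ndufa3, Ndufb9, Ndufa11, Ndufa1, Ndufs5 and Ndufa13), Uqcr11, Cox6a1, Atp5k and Atp5j2. The member median was -0.25 on the log2 scale, beside -0.008 over all genes. Ndufa3 had 23.9, 26.5 and 18.2 CPM in APX3330, below the 36.7 to 50.7 CPM of saline D27 (log2 fold change -0.975, SE 0.21, edgeR adjusted p = 0.0132). For Atp5k the APX3330 libraries had 24.8, 23.6 and 17.0 CPM, below all of saline D27 (log2 fold change -0.87, SE 0.26, edgeR adjusted p = 0.0456). For Ndufb9 they had 9.39, 11.7 and 6.97 CPM (log2 fold change -0.97, SE 0.28, edgeR adjusted p = 0.0431). The 2 higher members were Ndufaf4 (log2 fold change 0.51, edgeR adjusted p = 0.0357) and Ndufab1 (0.47, adjusted p = 0.0186). The count was 1 without saline D27 1 (2.24% of all genes), 1 without saline D27 2 (1.93%), 4 without APX3330 2 (2.7%) and 2 without APX3330 3 (2.83%). By DESeq2 it was 27, against 13.5% of all genes. With a trend on transcript length removed, an alternative chosen after the data were seen, 5 members were higher and 6 lower, with a median of -0.14, and 8.73% of all genes were called.

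Against saline D48, some members of complexes I, III and V were higher in the APX3330 libraries. Of the 91 tested members 16 passed (17.6%), 13 higher and 3 lower. That share was below the 19.7% of all genes called (9.41% higher and 10.3% lower). Of the tested members 41 had a log2 fold change above 0 and 50 below it, with a median of -0.04 beside -0.009 over all genes. The 13 held 3 of the 5 F1 subunits of complex V (Atp5a1, Atp5b and Atp5c1), Atp5pb and Atp5l, the core subunits Ndufv2 and Ndufs1 of complex I with the accessory Ndufa10 and Ndufab1, the assembly factors Ndufaf4 and Ndufaf7, and Uqcrfs1 and Uqcrc2. The 3 lower ones were Ndufc2 (log2 fold change -0.96), Ndufa3 (-0.72) and Uqcr11 (-0.53). Uqcrfs1 was higher by 0.48 (SE 0.09, edgeR adjusted p = 0.00184), with every APX3330 library above every saline D48 library. Ndufaf4 had 26.1, 39.9 and 30.5 CPM in APX3330 and was higher by 0.70 (SE 0.14, edgeR adjusted p = 0.00351). Ndufs1, which holds the iron-sulfur clusters at the entry of complex I, had 99.1, 104 and 92.2 CPM in saline D48 and 132, 122 and 128 CPM in APX3330 (log2 fold change 0.37, SE 0.08, edgeR adjusted p = 0.00639). Atp5a1, the alpha subunit of the F1 head, had 1207, 1331 and 1067 CPM in saline D48 and 1489, 1415 and 1540 CPM in APX3330 (log2 fold change 0.30, SE 0.10, edgeR adjusted p = 0.0365). The count was 10 without saline D48 3 (11.8% of all genes) and 10 without APX3330 1 (17.1%). Without the pancreatic libraries, which leaves 1 saline D48 library, the member median was 0.10 beside -0.04 with all libraries. DESeq2 on all libraries called 20 members, against 22.2% of all genes.

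In saline D100 against saline D48 15 members passed, 14 higher and 1 lower (Ndufc2), against 13.6% of all genes (7.2% higher and 6.4% lower). The 14 were Ndufa5, Ndufa10, Ndufab1, Ndufb4, Ndufs1, Ndufv2, Ndufaf4 and Ndufaf7 of complex I, Sdhb of complex II, Uqcrc2 and Uqcrfs1 of complex III, and Atp5c1, Atp5l and Atp5pb of complex V. Atp5pb had 279, 312 and 300 CPM in saline D100 and 213, 220 and 203 CPM in saline D48 (log2 fold change 0.49, SE 0.08, edgeR adjusted p = 0.00157), and this call was kept under all 16 alternatives run on it. Sdhb, the iron-sulfur subunit of succinate dehydrogenase, had 137, 139 and 125 CPM in saline D48 and 156, 172 and 162 CPM in saline D100 (log2 fold change 0.28, SE 0.09, edgeR adjusted p = 0.0479). This comparison shares the saline D48 libraries with the one before. The count was 9 without saline D48 1 (8.82% of all genes), 7 without saline D48 3 (9.06%), 5 without saline D100 2 (7.72%) and 8 without saline D100 3 (7.16%). It was 1 without the pancreatic libraries, where 2.52% of all genes were called, and 8 without the skeletal muscle and squamous libraries, where 6.97% were.

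Between the remaining pairs few or no members were called. Saline D48 against saline D27 gave 1 member (Ndufv2, lower), against 1.35% of all genes, and that call was lost when any 1 of the 6 libraries was left out. Yet 85 of the 91 tested members had a log2 fold change below 0 there, with a median of -0.20 beside 0.002 over all genes. The members share these libraries, and the shift of the set was not tested. Saline D100 against saline D27 gave 1 (Ndufc2, lower), against 3.08%, with 0 without saline D100 3, 0 without the skeletal muscle and squamous libraries and 3 without saline D27 3. APX3330 against saline D100 gave 0 by edgeR and 0 by DESeq2, against 0.504% of all genes by edgeR, and 3 members had an unadjusted p below 0.05. With no filter on low counts edgeR called 2. The member median was -0.12 in saline D100 against saline D27 and -0.08 in APX3330 against saline D100.

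**Figure D3:**
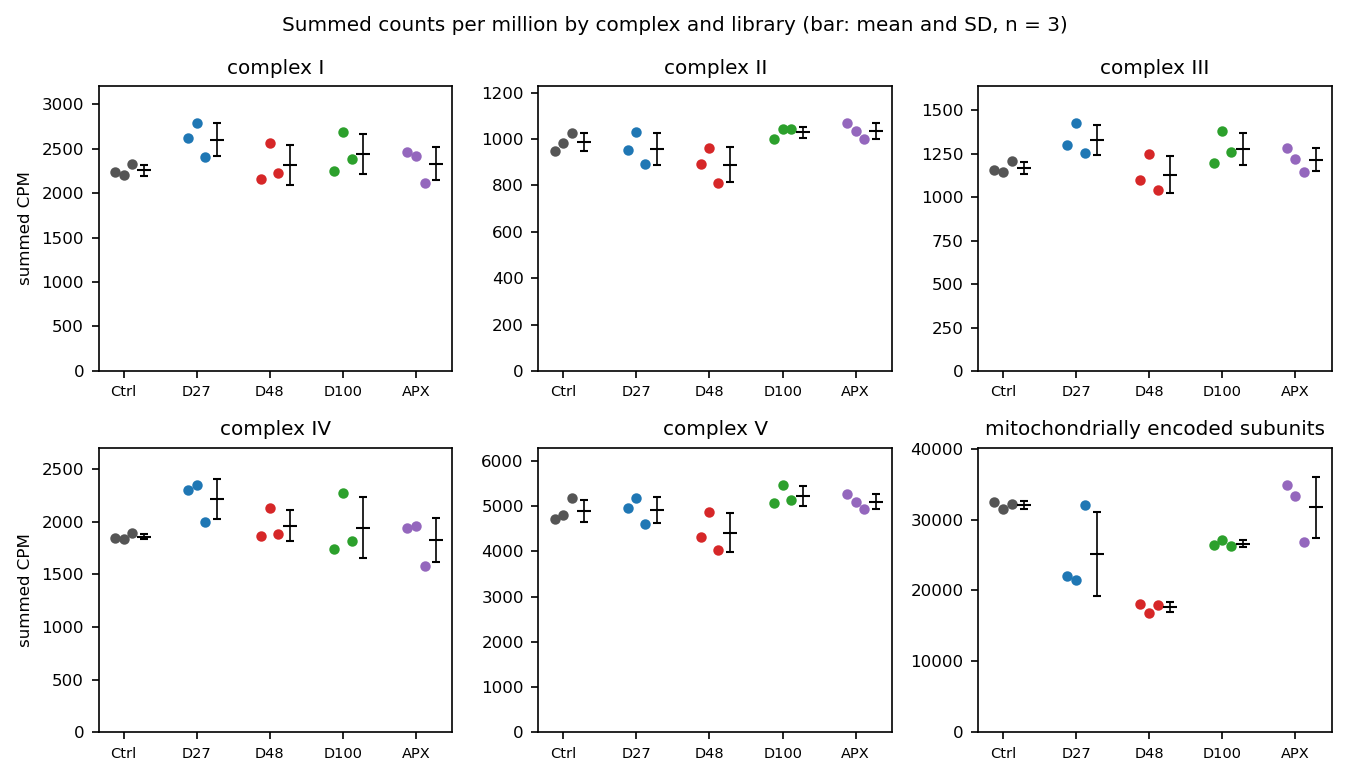
Summed CPM of the members of each complex, and of the mitochondrially encoded subunits, in each library, with the mean and SD of 3 libraries beside the points. The mitochondrially encoded sum is between 16820 and 18150 CPM in saline D48 and 21470 or more in every other library, while the sums of the nuclear-encoded complexes overlap between Control and saline D48.

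Complex II, which is encoded wholly in the nucleus, had 4 tested members and none that differed over the 5 groups. Sdha, the flavoprotein that oxidizes succinate, had 414, 426 and 469 CPM in Control, 386, 414 and 347 CPM in saline D27 and 388, 426 and 342 CPM in saline D48. It had 434, 450 and 465 CPM in saline D100 and 457, 466 and 455 CPM in APX3330, so Control overlapped each of the other groups. In complex III, Uqcrc1, a core protein, was not called in saline D48 against Control, where it averaged 240.3 ± 24 CPM beside 248 ± 13.7 (SD, n = 3).

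Among isoforms bound to a tissue or condition, 4 passed the filter on low counts (Cox4i2, Cox6b2, Cox7a1 and Ndufa4l2). Cox6a2 and Cox8b, the heart and skeletal muscle forms of their subunits, did not pass the filter. Cox6a2 had 82, 0 and 42 counts in the 3 Control libraries and 9 or fewer in each of the other 12. Cox8b had 21, 1 and 2 counts in Control and at most 7 elsewhere. The libraries with the most Cox6a2, Control 1 and Control 3, are also those with 1259 and 573 summed CPM of skeletal muscle genes, and Control 2 had 22.9 summed CPM and no Cox6a2 count. All 9 skeletal muscle genes on the list were in the table and 8 passed the filter. Tnnc2 was at 0 in 14 of 15 libraries. Cox7b2, a form known from testis, had 1 count in all.

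Ndufa4l2, a paralog of Ndufa4 known as a target of the hypoxia factor HIF-1 (chr10:127514967-127517154, plus strand), had 9.07, 1.39 and 6.06 CPM in Control. It had 1.39, 0.964 and 1.99 CPM in saline D27, 1.19, 1.87 and 1.28 CPM in saline D48, 1.84, 0.256 and 0.376 CPM in saline D100 and 0.608, 2.33 and 0.335 CPM in APX3330. The Control group overlapped every other group through Control 2. By edgeR it was called lower in saline D100 (log2 fold change -2.74, SE 0.77, adjusted p = 0.0192) and APX3330 (-2.33, SE 0.75, adjusted p = 0.0472). The first call was lost under 4 of 15 alternatives and the second under 7 of 15. Its high Control libraries, 1 and 3, are the 2 with skeletal muscle transcripts. They also had more of the squamous epithelium genes (1014 and 472 summed CPM, beside 7.6 in Control 2). The same held for 4 brown adipocyte genes (15.8 and 7.32 summed CPM, beside 0.584). The part that these tissues play was not tested.

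Cox4i2, a form linked to low oxygen, had 1.09, 1.46 and 0.932 CPM in Control and 0.405, 0.400 and 0.469 CPM in APX3330. These groups did not overlap, yet the difference missed the threshold (log2 fold change -1.43, SE 0.47, edgeR adjusted p = 0.0511). Cox7a1, a muscle form of subunit 7a, averaged 10.02 ± 2.75 CPM in Control, 13.2 ± 1.48 at D27, 9.75 ± 2.26 at D48, 10.5 ± 3.42 at D100 (SD, n = 3), beside 8.83 ± 0.461 in the APX3330 group, and Cox6b2, a form known from testis, ran from 1.96 to 5.198 CPM over all libraries. Neither was called in any comparison. Cox8c and Ndufb11b had no count, which allows a level of up to 0.167 to 0.225 CPM depending on the library. This limit, set at 3 counts a library, covers counting error only.

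**Figure D4:**
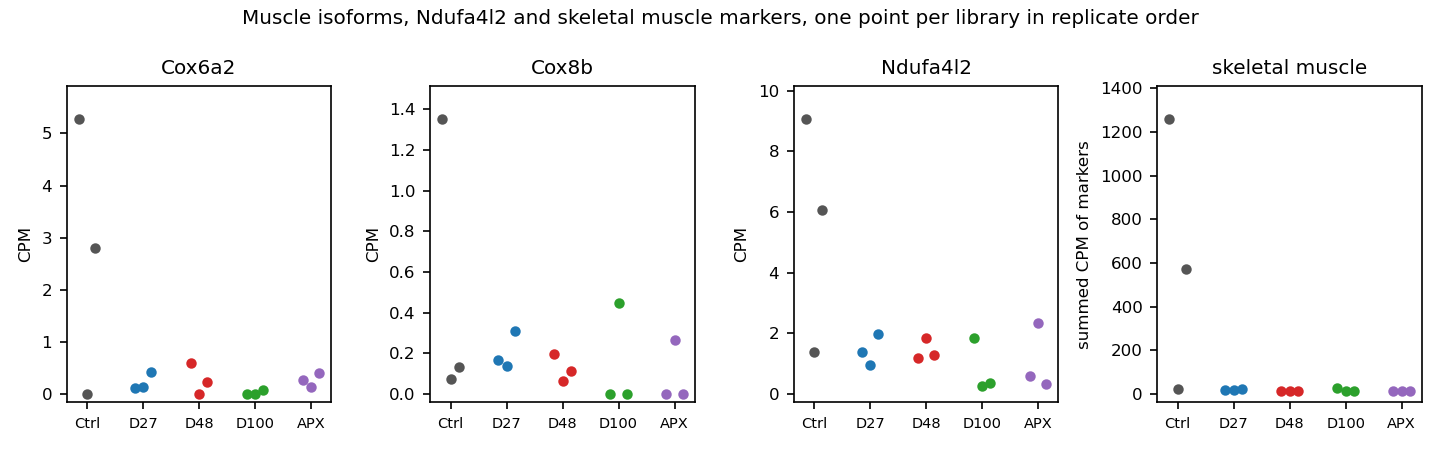
Level (CPM) of Cox6a2, Cox8b and Ndufa4l2, and the summed CPM of 9 skeletal muscle genes, 1 point per library with replicates 1 to 3 from left to right in each group. Control 1 and Control 3 hold the highest 2 values of Cox6a2 (5.28 and 2.80 CPM), of Ndufa4l2 (9.07 and 6.06 CPM) and of the muscle genes (1259 and 573 CPM).

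The direction of change ran with transcript length. Of the tested members, 40 had a transcript under 700 nucleotides, 33 one from 700 to under 1400, and 18 one of 1400 or more. In saline D27 against Control, 15 of the 40 short, 8 of the 33 middle and 0 of the 18 long members were higher. Of all genes in these classes 14%, 11.9% and 9.59% were higher. In APX3330 against saline D48, 1 of 40, 2 of 33 and 10 of 18 were higher, beside 3.28%, 5.78% and 11% of all genes. The 5 members higher in saline D48 than in Control were all in the short class, and the 10 lower ones held 1 short, 4 middle and 5 long transcripts. Of all genes in the short, middle and long classes 17.9%, 13.3% and 14.4% were higher there, and 5.94%, 11% and 14.4% lower. The share of short members higher there was below that of all short genes. Across the 91 members, which share libraries and depth, the log2 fold change ran against log10 length with Pearson's r of -0.47 in saline D27 and -0.44 in saline D48 against Control, 0.57 in APX3330 against saline D27 and 0.50 in APX3330 against saline D48. Across the 17455 tested genes with a length, r was -0.113 and -0.112 in the first pair and 0.115 and 0.102 in the last pair.

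The median log2 fold change in saline D27 against Control was 0.41 over the 40 short members and 0.22 over all 1432 short genes, of which 14% were called higher and 3.98% lower. In saline D48 against Control the short class had a median of 0.175 over members and 0.175 over all genes, and in APX3330 against saline D48 -0.142 and -0.145. For the long class in saline D27 against Control it was -0.03 over 18 members and -0.02 over 13291 genes. The long members parted from all long genes in the other comparisons. Their median was -0.179 beside -0.008 in saline D48 against Control, and 0.289 beside 0.009 in APX3330 against saline D48. The shift also varied between libraries of 1 group. The median log2 level of the short members, relative to the Control mean, was 0.435, 0.495 and 0.268 in the saline D27 libraries, -0.001, 0.347 and 0.175 in saline D48, and -0.06, 0.48 and 0.03 in saline D100. In APX3330 it was 0.11, 0.14 and -0.17. Thus 1 saline D100 library was as high as those of saline D27 while the other 2 were near Control. Over all short genes the same libraries had 0.25, 0.25 and 0.18 in saline D27 and 0.01, 0.29 and 0.07 in saline D100.

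**Figure D5:**
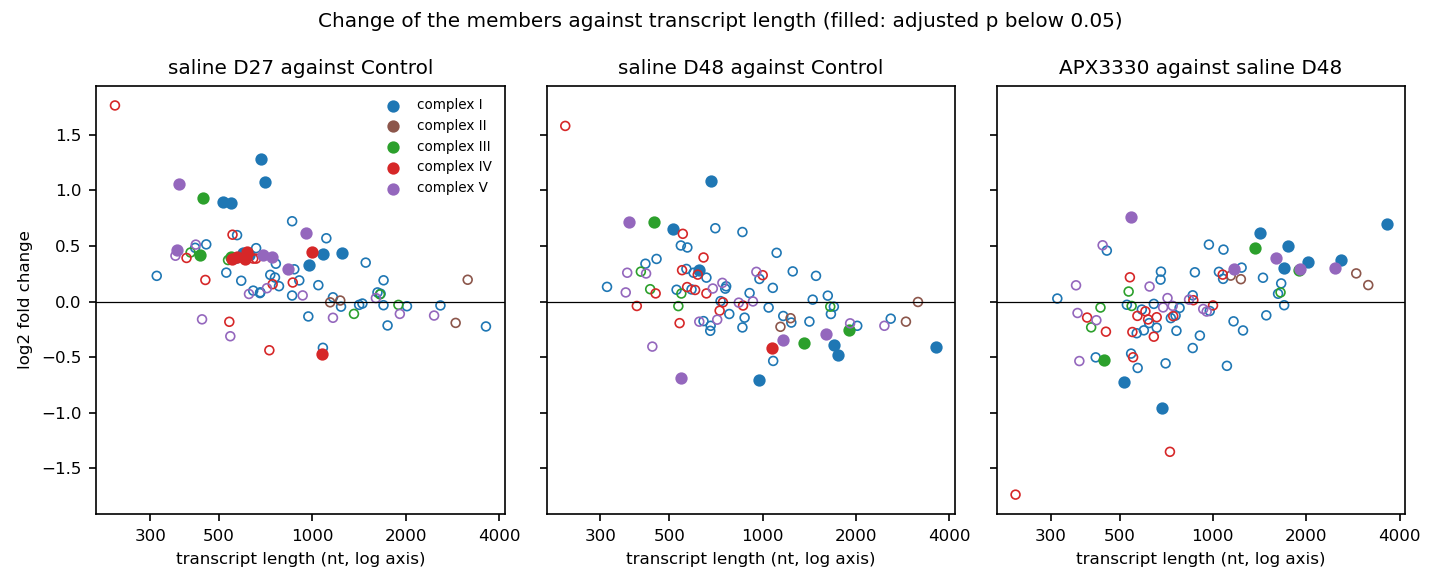
Log2 fold change of each tested member except Ndufa4l2 against its transcript length in nucleotides on a log axis, in 3 comparisons; colours give the complex and filled points passed the edgeR test. Filled points in saline D27 against Control are transcripts under 1400 nucleotides and lie above 0 apart from Cox7a2l, and in APX3330 against saline D48 the filled points at 1400 nucleotides or more all lie above 0.

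An alternative chosen after the data were seen removed the trend on transcript length from each library. It called 16 members in saline D27 against Control (13 higher, 3 lower), 15 in saline D48 against Control (3 higher, 12 lower) and 24 in APX3330 against saline D48 (22 higher, 2 lower). Of all genes it called 19.8%, 28.2% and 20.6%, and the member median in saline D27 against Control fell to 0.12 from 0.22. In saline D27, Ndufc2 kept a log2 fold change of 1.165 (edgeR adjusted p = 8.83e-05) and Uqcr11 one of 0.72 (adjusted p = 0.00164). In saline D48, Ndufv2 kept -0.37 (edgeR adjusted p = 0.00255) and Uqcrfs1 -0.36 (adjusted p = 0.0046). Cox6a1, Cox8a and Cox6b1 were no longer called in saline D27.

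Other genes of mitochondrial energy metabolism were taken from lists chosen with earlier results of these data known. For scale, 9.36% of all genes were lower in saline D27 than in Control. In saline D48 against Control 13% were lower and 14.3% higher, and in APX3330 against saline D48 9.41% were higher. Of 10 tested subunits encoded by mitochondrial DNA, 6 were lower in saline D27 and all 10 in saline D48 than in Control, with median log2 fold changes of -0.61 and -1.105, and 9 were higher in APX3330 than in saline D48. mt-Nd5, a proton-pumping subunit of complex I, had 2766, 2541 and 2734 CPM in Control and 1162, 1216 and 1163 CPM in saline D48 (log2 fold change -1.18, SE 0.13, edgeR adjusted p = 2.71e-05). The saline D48 libraries were the lowest of all groups for this gene. The count lower in saline D48 than in Control was 9 without the pancreatic libraries and 7 without the skeletal muscle and squamous libraries. In saline D27 against Control the count of 6 became 0 without the latter.

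Of 14 tricarboxylic acid cycle genes, 7 were lower in saline D48 than in Control, beside 13% of all genes. In APX3330 11 were higher than in saline D48, beside 9.41% of all genes. Cs, citrate synthase, had 726, 765 and 758 CPM in Control, 565, 528 and 492 CPM in saline D48 and 589, 665 and 795 CPM in APX3330 (log2 fold changes by edgeR of -0.51, adjusted p = 0.00239, and 0.37, adjusted p = 0.0215). The counts of 7 and 11 became 1 and 4 without the pancreatic libraries, and the count of 7 became 2 without the skeletal muscle and squamous libraries. Of 13 genes of the outer membrane and inner membrane carriers, 8 were lower and 1 higher in saline D48 than in Control. Of all genes 27.3% were called in that comparison. Vdac3, a pore of the outer membrane, had 158, 160 and 163 CPM in Control and 113, 89.0 and 95.4 CPM in saline D48 (log2 fold change -0.69, SE 0.09, edgeR adjusted p = 8.88e-05). The count lower was 5 without the pancreatic libraries and 5 without the skeletal muscle and squamous libraries. Of 20 mitochondrial ribosomal proteins 1 was lower and 1 higher in that comparison, and of 33 tested assembly factors outside the rule 4 were lower and 1 higher, beside the 27.3% of all genes called. Without the skeletal muscle and squamous libraries edgeR called 0 of either list, and without the pancreatic libraries 0 ribosomal proteins and 1 assembly factor.

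Cycs, cytochrome c, which carries electrons from complex III to IV, had 28.4, 35.3 and 37.5 CPM in Control, 21.6, 13.1 and 19.1 CPM in saline D48 and 37.9, 37.1 and 44.2 CPM in APX3330. The saline D48 libraries lay below both other groups, with log2 fold changes by edgeR of -0.91 (adjusted p = 0.00448) against Control and 1.147 for APX3330 against saline D48 (adjusted p = 0.00174). The call against Control was lost without the skeletal muscle and squamous libraries, and both calls were lost without the pancreatic libraries. Of 10 regulators of mitochondrial biogenesis, 3 were lower and 1 higher in both saline D27 and saline D48 than in Control. Of all genes 19.5% and 27.3% were called against Control in saline D27 and saline D48. Ppargc1a, the coactivator PGC-1 alpha, had 64.9, 53.8 and 55.1 CPM in Control, 46.2, 21.4 and 36.7 CPM in saline D27 and 29.4, 34.8 and 30.8 CPM in saline D48 (log2 fold changes by edgeR of -0.73, adjusted p = 0.0205, and -0.87, adjusted p = 0.00552). Gabpa, an ETS-family factor that binds promoters of respiratory genes, was lower by 0.49 (edgeR adjusted p = 0.0122; log2 fold change -0.49) in saline D27 and by 0.55 (adjusted p = 0.00409; -0.55) in saline D48, and was higher by 0.48 in APX3330 than in saline D48 (adjusted p = 0.0142). Nrf1 and Esrra, regulators of the same genes, were not called in these 3 comparisons. Without the skeletal muscle and squamous libraries edgeR called 0 of the regulators in saline D27 and in saline D48 against Control. Without the pancreatic libraries it called 0 in saline D48 against Control and in APX3330 against saline D48.

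The makeup of the tissue moved with the groups too. In bulk tissue, fewer cells of a type and less RNA per cell cannot be told apart. All 8 goblet cell genes were higher in saline D27 and in saline D48 than in Control, with sums of 9824 to 10790 CPM in Control, 51290 to 64230 in saline D27, 26780 to 49910 in saline D48 and 47280 to 77900 in APX3330. Of 8 leukocyte genes 7 were higher in both, with sums of 221 to 275 CPM in Control, 566 to 754 in saline D27, 678 to 1381 in saline D48 and 338 to 477 in APX3330. Of 8 smooth muscle genes 6 were lower in saline D48 than in Control, with sums of 10070 to 10350 CPM in Control, 7287 to 9803 in saline D27, 4999 to 5963 in saline D48 and 4337 to 5676 in APX3330. Colonocyte genes summed to 13960 to 16700 CPM in Control, 12600 to 14500 in saline D48 and 9328 to 13570 in APX3330. The 8 genes of this list split in direction against Control, which the sums hide. In saline D27 2 were higher and 2 lower, in saline D48 1 and 4, and in APX3330 2 and 4. Their log2 fold changes ran from -2.58 to 0.47 in saline D48 and from -1.45 to 1.97 in APX3330. Of 7 white adipocyte genes 6 were lower in APX3330 than in saline D27 and 5 lower than in saline D48, with sums of 18.8 to 33.6 CPM in APX3330 and 36.3 to 91.2 in saline D27. Sums of 8 general epithelial genes stayed between 8803 and 11730 CPM in all libraries, which bears on the colon label. The part of these cell types in the changes of the respiratory chain genes was not tested.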

How the data were processed

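The 15 RNA-seq libraries came from mouse colon (RNeasy mini plus and a SMARTER mRNA-Seq kit, per the labels' protocols). The authors deposited 1 table of raw counts, whole numbers with no normalization. The submitters' processing notes name the builds GRCm38 and mm10. Which aligner and counter were used is not given in the sources used here. Groups came from the labels. Genes passing filterByExpr were scaled by TMM and fitted over all 15 libraries with edgeR 4.0.16 (quasi-likelihood, R 4.3.3), in 10 pairwise comparisons and 1 F test over the groups, with Benjamini-Hochberg adjustment. The fit was tested on simulated data. Alternatives were other scalings, no filter on low counts, DESeq2 1.42.0, a replicate block, only the 2 groups compared, each library left out, and the libraries with other tissues left out. Removal of the length trend was added after the data were seen.

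Members and gene lists were chosen with earlier results of these data known. Values were printed for the highest and most variable member of each complex, up to 4 called members per direction and comparison, the called members with the smallest p, tissue isoforms and regulators. Ndufs1, Sdhb, Atp5a1 and Ndufa11 fall outside that rule and were chosen after their values were seen. Lengths, overlaps and shared 50-base words came from GENCODE M21, and promoters from RefSeq. The values of 1 member are not reported here.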

Additional observations from a re-analysis of the deposited data

How the results depend on the processing

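The counts of members called by edgeR moved by more than 1.5 times in 61 cases and kept within that in 114. Without the filter on low counts they were 37 in saline D27, 7 in saline D100 (both against Control), 24 in APX3330 against saline D27, 2 in APX3330 against saline D100, 3 in saline D100 against saline D27 and 40 over the 5 groups. Of all genes that fit called 11.7%, 12.9%, 6.56%, 2.33% and 3.56% in the pairwise comparisons, in the order given. DESeq2 gave 27 in APX3330 against saline D27 (13.5% of all genes), 2 in saline D48 against saline D27 (3.97%) and 2 in saline D100 against saline D27 (7.05%). Total counts without factors gave 0 (1.35% of all genes) and 2 (2.44%) in the last pair and 9 in saline D100 against saline D48 (13.2%). Fits to only the 2 groups gave 1 in APX3330 against Control, 10 in APX3330 against saline D48, 0 in saline D48 against saline D27 and 9 in saline D100 against saline D48. Removal of the length trend, chosen after seeing the data, gave 9 in saline D100 against Control and 2 in saline D100 against saline D27.

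Without the skeletal muscle and squamous libraries the counts against Control were 1 at D27, 2 at D48, 1 at D100 and, in the APX3330 group, 1. They were 0 in saline D100 against saline D27, 8 in saline D100 against saline D48 and 13 over the 5 groups. Without the pancreatic libraries they were 2 in saline D48 against Control, 0 in APX3330 against saline D48, 0 in saline D48 against saline D27 and 1 in saline D100 against saline D48. The cause of these shifts was not tested, and each of these fits has fewer libraries.

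With 1 library left out at a time the counts ran from 6 to 22 for saline D27, 9 to 16 for D48, 1 to 13 for D100 and 1 to 4 for APX3330, each against Control. They ran from 1 to 18 in APX3330 against saline D27, 10 to 17 against saline D48 and 0 to 0 against saline D100. They ran from 0 to 0 in saline D48 and 0 to 3 in saline D100 against saline D27, 5 to 11 in saline D100 against saline D48, and 17 to 36 over the 5 groups. The share of all genes called ran from 9.59% to 17.8% for saline D27, 19.1% to 23.8% for D48 and 14.1% to 18.7% for D100 against Control. It ran from 1.93% to 10.1% in APX3330 against saline D27 and 11.4% to 17.1% against saline D48.

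Library numbers did not pair the samples: deviations of same-numbered libraries correlated at -0.14 to 0.255 (30 pairs) and of others at -0.325 to 0.206 (60 pairs). With the replicate block the counts were 28, 12, 5 and 2 against Control (saline D27, D48, D100 and APX3330), 15, 16 and 0 in APX3330 against saline D27, D48 and D100, 0 in saline D48 against saline D27, 2 in saline D100 against saline D27, 12 in saline D100 against saline D48 and 27 over the 5 groups. Of all genes it called 17.9%, 25.9%, 20.5% and 13.9% against Control. In the other pairs, in the order given, it called 7.91%, 18.2%, 0.272%, 1.01%, 2.38% and 12.5%. Of the values for named members, 520 stayed on their side of the threshold with their direction and 149 lost the call. None reversed.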
